A study of Mus musculus with 4 samples.

Results

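Fibroblast growth factor (Fgf) ligands and receptors were followed in the otocyst, the closed epithelial vesicle from which the inner ear forms, of mouse embryos with and without the transcription factor genes Tbx2 and Tbx3. The members were 7 ligands (Fgf3, Fgf8, Fgf9, Fgf10, Fgf16, Fgf18 and Fgf20) and 3 receptors (Fgfr1, Fgfr2 and Fgfr3), taken by gene name from the array annotation. They were 10 of the 31791 gene names on the array and had 18 of its 39429 probes, each read on its own. Mutant RNA, called Tbx2/3cDKO, came from NMRI embryos at stage E10.5 that carried Pax2-cre and were Tbx2(fl/fl) and Tbx3(fl/fl). Control RNA came from NMRI embryos of the same stage labelled Tbx2(fl/?);Tbx3(fl/?), a label that does not say how many floxed copies each carried and names no Cre. The Pax2-cre transgene limits recombination to cells that have expressed it, and otocysts were dissected by hand, so neighbouring cells can be present in both groups. Each of 4 two-colour arrays carried 1 mutant and 1 control RNA of the same labelled sex (replicates 1 and 2 female, 3 and 4 male), with the dyes swapped within each sex. No label says whether an RNA came from 1 embryo or from a pool, so the spread between arrays may be partly technical.

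Fgf ligands are secreted proteins that bind receptor tyrosine kinases together with heparan sulfate, and the activated receptor signals mainly through the Ras-MAPK cascade to Etv transcription factors and to feedback inhibitors such as Dusp6 and the Sprouty proteins. In the ear, Fgf3, Fgf8 and Fgf10 take part in placode induction and in the morphogenesis of the otocyst, Fgf10 and Fgf20 mark or act in prosensory epithelium, and Fgf9 and Fgf20 are closely related ligands. Fgfr2 carries the epithelial response to Fgf3 and Fgf10, while Fgfr1 and Fgfr3 are used later in the sensory epithelium of the cochlea.

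Between 57.4% and 62.2% of the probes were well above background in a channel, and ratios correlated between arrays with r of 0.643 to 0.849. The deletion was checked with the targeted genes: Tbx3 was lower in the mutant by a log2 ratio of -3.43 ± 0.16 (SD, n = 4), whereas Tbx2 stood at 0.06 ± 0.23 (adjusted p = 0.656, limma with Benjamini-Hochberg adjustment). The sources used here do not say whether the Tbx2 probe lies in the deleted part. Sex-linked genes went partly against the labels of the arrays of replicates 2 and 4. Xist, the RNA of the inactive X chromosome, reached log2 signals of 7.74 and 7.56 at both its probes in mutant replicate 4, labelled male, against 6.47 and 6.62 in control replicate 4. The Y-linked Eif2s3y stood at 6.82 and 7.02 in the mutant and control of replicate 2, labelled female, where replicate 1 had 5.97 and 6.19 and the male channels had 10.42 to 11.01. Y-linked Ddx3y went with the labels, at 6.11 to 6.26 in all female and 10.55 to 11.04 in all male channels, and Xist was at 9.36 to 9.69 in all female channels. For member probes, calls that change without either array are given with that change. Single marker genes and the targeted genes were not recomputed without an array, and changes of list counts are not given.

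The stretches that some of the probes read are given by the following 60-base sequences, copied from the array annotation. The sequences alone do not say which transcript variants carry them. They are written 5′ to 3′ on the transcript strand, with mm9 positions. They were chosen because probes of 1 gene gave different values (Fgf8, Fgfr3), overlap each other (Fgfr2), or cross an intron (Fgf3, Fgfr3). The capitals in the Fgfr2 probe mark a stop codon at its 3′ end.
Fgf8, transcript variant 1 probe (A_55_P2101506, chr19:45816855-45816914, minus strand): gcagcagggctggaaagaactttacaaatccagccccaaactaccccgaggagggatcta
Fgf8, upstream common probe (A_55_P2108109, chr19:45811668-45811727, minus strand): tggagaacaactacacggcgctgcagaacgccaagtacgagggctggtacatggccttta
Fgf3 (A_51_P205028, chr7:152026667-152028526, plus strand): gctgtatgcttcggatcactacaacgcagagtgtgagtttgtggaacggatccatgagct
Fgfr2 (A_55_P2094881, chr7:137307473-137307532, minus strand): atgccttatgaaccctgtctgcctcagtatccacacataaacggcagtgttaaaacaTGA
Fgfr3 (A_65_P06147, chr5:34077856-34078090, plus strand): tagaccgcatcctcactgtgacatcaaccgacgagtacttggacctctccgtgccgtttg
The Fgf3 probe spans 1860 genomic bases and the Fgfr3 probe 235, each longer than the probe itself, so both read spliced RNA. Exon and UTR limits in mm9 were not used here.

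Of the 18 probes, 17 for 9 genes passed the signal filter (well above background in the mutant or in the control channel of 3 or more arrays) and were tested. The test was limma's moderated test of mutant over control on log2 ratios, adjusted by Benjamini-Hochberg over all 23196 probes tested. At an adjusted p under 0.05, 13 member probes were called, where 22.1% of all probes tested were. Of these, 8 were higher in the mutant and 5 were lower, where 12.4% of all probes were called higher and 9.70% lower. The 8 higher probes read Fgf8, Fgf9, Fgf18, Fgfr1 and Fgfr3, and the 5 lower ones read Fgf10, Fgf20 and Fgfr2. Among the 8 is the Fgf8 variant 1 probe, which passed the filter through its mutant channels alone. With signal well above background required in all channels, 7 member probes were higher and 5 lower, and 2533 and 2020 of all probes. With 1 probe per gene, the brightest, 5 members were higher and 3 lower, against 13.1% and 9.81% (23.0% in either direction) of the 18448 gene names with a kept probe. Mutant and control signals did not overlap between arrays for 12 of the 17 probes, against 22.4% of all probes. The median log2 ratio was 0.28 over the 17 probes and -0.00 over all probes tested. In dissected tissue, fewer cells of a type and less RNA per cell cannot be told apart.

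**Figure D1:**
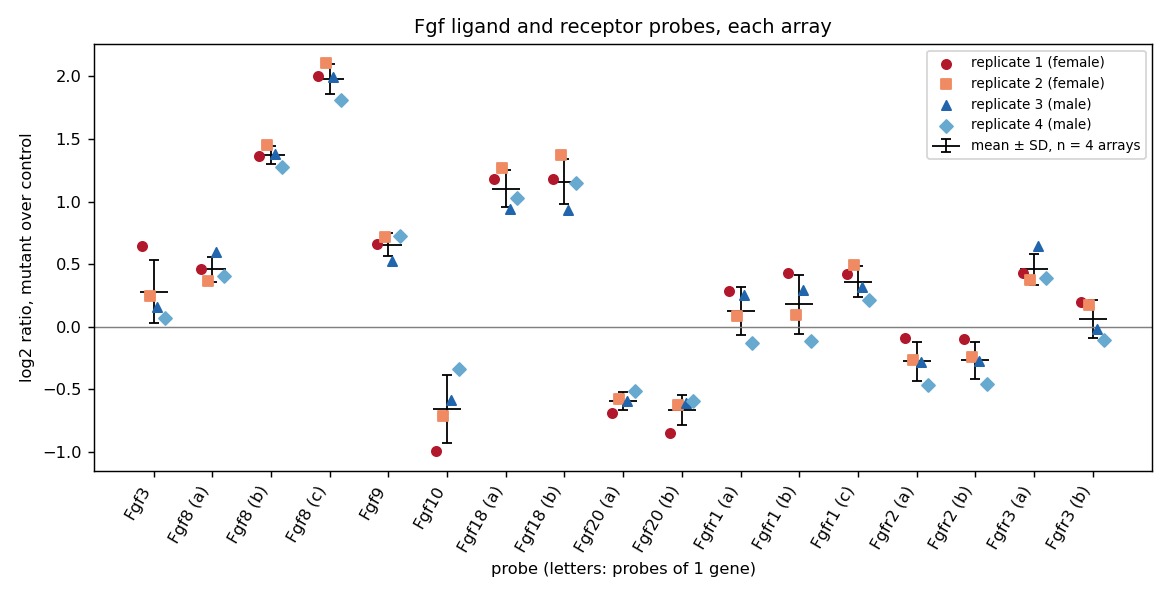
Log2 ratio of mutant over control for the 17 tested probes of Fgf ligands and receptors, 1 point per array, with the mean and SD of 4 arrays (bars). Letters number the probes of 1 gene in the order of their names. All arrays lie above 0 for Fgf8, Fgf9 and Fgf18 and below 0 for Fgf10, Fgf20 and Fgfr2, while the arrays fall on both sides of 0 for Fgfr1 (a), Fgfr1 (b) and Fgfr3 (b).

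The ligands with the largest rises were Fgf8 and Fgf18, members of 1 ligand subfamily that signals mainly to mesenchymal receptor isoforms. Fgf17, of the same subfamily but outside the member set, had a log2 ratio of 0.15 ± 0.19 and missed the threshold (limma adjusted p = 0.127). Fgf8, a morphogen of many embryonic signalling centres, was read by 3 probes. At the upstream common probe, which the array annotation lists for 4 RefSeq variants, mutant log2 signals were 10.80, 10.65, 10.78 and 10.498 on replicates 1 to 4, and control signals were 8.80, 8.54, 8.78 and 8.68. The lowest mutant signal lay well above the highest control signal. The log2 ratio was 1.98 ± 0.12 (SD, n = 4; 95% interval 1.83 to 2.13), a 3.94-fold rise with an adjusted p of 9.75e-06 in limma. A second probe common to the variants, A_55_P2101508 at chr19:45811355-45811414, lies further towards the 3′ end. Its ratios of 1.37, 1.45, 1.38 and 1.28 gave a mean of 1.37 ± 0.07, a 2.58-fold rise (limma adjusted p = 1.81e-05). The downstream probe thus gave the smaller ratio on all 4 arrays, by 0.61 ± 0.05 on the log2 scale.

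The third Fgf8 probe is listed only for RefSeq transcript variant 1, whose first coding part differs from other variants by alternative splicing. Its mutant log2 signals were 6.997, 6.88, 7.07 and 6.93 and its control signals were 6.54, 6.52, 6.47 and 6.52. Spots were well above background on 3 of 4 arrays in the mutant and on 0 of 4 in the control, so the control has only an upper bound. The measured ratio was 0.46 ± 0.10, and variant 1 signal was at least 1.19-fold higher in the mutant. The probe was called higher, but it passed the signal filter through its mutant channels alone, which favours a rise. In such bounds the dim group is set at the higher of its own signal and the lowest signal of any probe well above background on that array. The size of this ratio depended on how the spot background was treated. It was 0.46 with normexp and an offset of 50, 0.68 ± 0.15 with an offset of 16, 0.61 ± 0.04 with no subtraction, and 2.19 ± 0.12 in the scanner software's own ratios. The upstream common probe moved only between 1.98 ± 0.12 and 2.19 ± 0.16 over the same treatments. Against the downstream probe the variant 1 ratio was lower by 0.91 ± 0.13 in the main processing and higher by 0.65 ± 0.16 in the scanner ratios, so no order among the probes can be read for variant 1. The downstream minus the upstream common probe kept its difference, from -0.66 to -0.61.

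**Figure D2:**
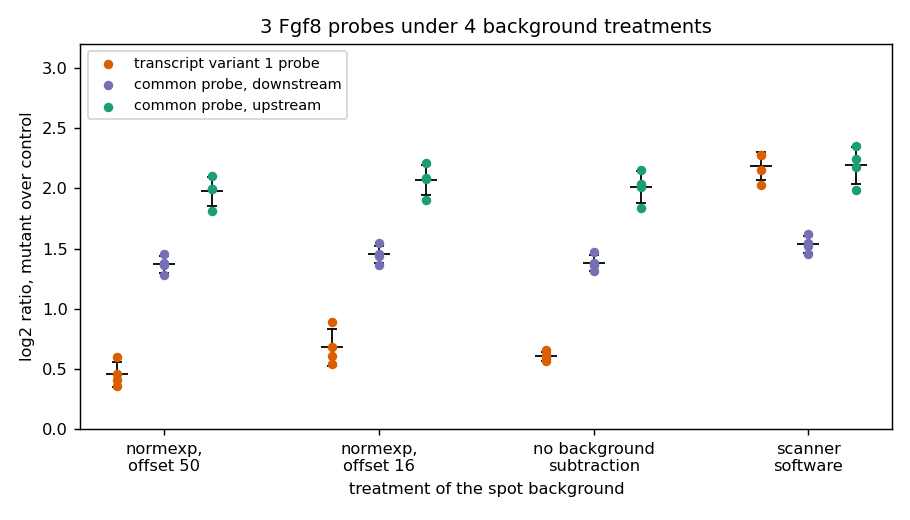
Log2 ratio of mutant over control for the 3 Fgf8 probes under 4 treatments of the spot background, 1 point per array, with mean and SD of 4 arrays. The common probes move less, from 1.98 to 2.19 (upstream) and from 1.37 to 1.54 (downstream). The transcript variant 1 probe moves from 0.46 with an offset of 50 to 2.19 in the scanner software's ratios.

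Fgf18, a ligand best known from skeletal and lung development, was read by 2 probes on the minus strand of chromosome 11. The probe A_55_P2211319 at chr11:33017440-33017499 gave mutant log2 signals of 12.36, 12.56, 12.14 and 12.19, and control signals of 11.17, 11.19, 11.21 and 11.04. Every mutant signal exceeded every control signal. The ratio was 1.16 ± 0.18, a 2.23-fold rise (95% interval 1.00 to 1.32 on the log2 scale, limma adjusted p = 6.81e-05). The probe A_55_P1976356 at chr11:33017474-33017533 shares 26 bases with it, with 0 differences, and is no independent measurement. It gave ratios of 1.18, 1.27, 0.94 and 1.03, with a mean of 1.10 ± 0.15 and a limma adjusted p of 8.62e-05.

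Fgf9, Fgf16 and Fgf20 form a second subfamily, and its measured members moved in opposite directions. Fgf9, which signals between epithelium and mesenchyme in several organs, was read at chr14:58728897-58728956 on the plus strand (A_55_P2015994). Its mutant log2 signals were 12.68, 12.73, 12.60 and 12.70, above the control signals of 12.02, 12.01, 12.07 and 11.98 on every array. The rise was 1.58-fold, with a log2 ratio of 0.66 ± 0.09 (95% interval 0.53 to 0.78, limma adjusted p = 0.00025).

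Fgf20, which marks the prosensory domain and is needed later for cochlear hair cell differentiation, was lower in the mutant at both its probes. At A_55_P2169499 (chr8:41365111-41365170, minus strand) the mutant log2 signals were 8.19, 8.30, 8.34 and 8.42, and the control signals were 8.89, 8.88, 8.93 and 8.94. At A_55_P2180059 (chr8:41365079-41365138) they were 8.40, 8.53, 8.69 and 8.68 in the mutant and 9.25, 9.15, 9.30 and 9.27 in the control. The groups did not overlap at either probe. Log2 ratios were -0.59 ± 0.07 and -0.67 ± 0.12, a 1.51-fold and a 1.59-fold fall (limma adjusted p = 0.000365 and 0.000374). The probes share 28 bases that differ at 1 position, so both stretches are shown with that base in capitals.
Fgf20, first probe: caaagacctactgatgtacactGgatga
Fgf20, second probe: caaagacctactgatgtacactTgatga
The substitution is G23T, counted from 1 at the 5′ end of the shared stretch with the base of the first probe first. Despite it, the ratios of both probes differed by 0.07 ± 0.06 on the log2 scale.

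Fgf16, the remaining member of the subfamily, was not well above background on any array in either genotype (A_55_P2048134, chrX:102971776-102971835). Its log2 signals lay between 6.13 and 6.23 in the mutant and between 6.20 and 6.26 in the control. It was not tested, and no difference was detectable at this signal.

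Fgf3 and Fgf10, both ligands of the epithelial isoform of Fgfr2, did not share a direction. Fgf10 was read at chr13:119580365-119580424 on the plus strand (A_52_P42269) by 10 spots on each array, which makes it one of the most closely measured members. Mutant log2 signals were 9.17, 9.22, 9.32 and 9.77, and control signals were 10.16, 9.93, 9.90 and 10.11. All mutant values lay below all control values, with mutant replicate 4 nearest to the controls. The ratios were -0.996, -0.71, -0.58 and -0.34, a mean of -0.66 ± 0.27 and a 1.58-fold fall (95% interval -0.87 to -0.44, limma adjusted p = 0.00243). Between the 10 spots of 1 array the SD was 0.028 to 0.064, so the arrays differed from one another by more than the spots did.

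Fgf3 had mutant log2 signals of 9.11, 8.67, 8.54 and 8.27 and control signals of 8.47, 8.42, 8.39 and 8.20. Replicate 1 of the mutant stood highest, and the groups overlapped. The ratios of 0.64, 0.25, 0.16 and 0.07 gave a mean of 0.28 ± 0.25 and a limma adjusted p of 0.0608, which missed the threshold. Without replicate 3 the ratio was 0.40 and without replicate 4 it was 0.32, with adjusted p of 0.0148 and 0.0445. A term for sex (adjusted p = 0.00619) and median centring in place of loess (adjusted p = 0.0195) also passed the threshold, while leaving out replicate 1 gave 0.16 with an adjusted p of 0.253.

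**Figure D3:**
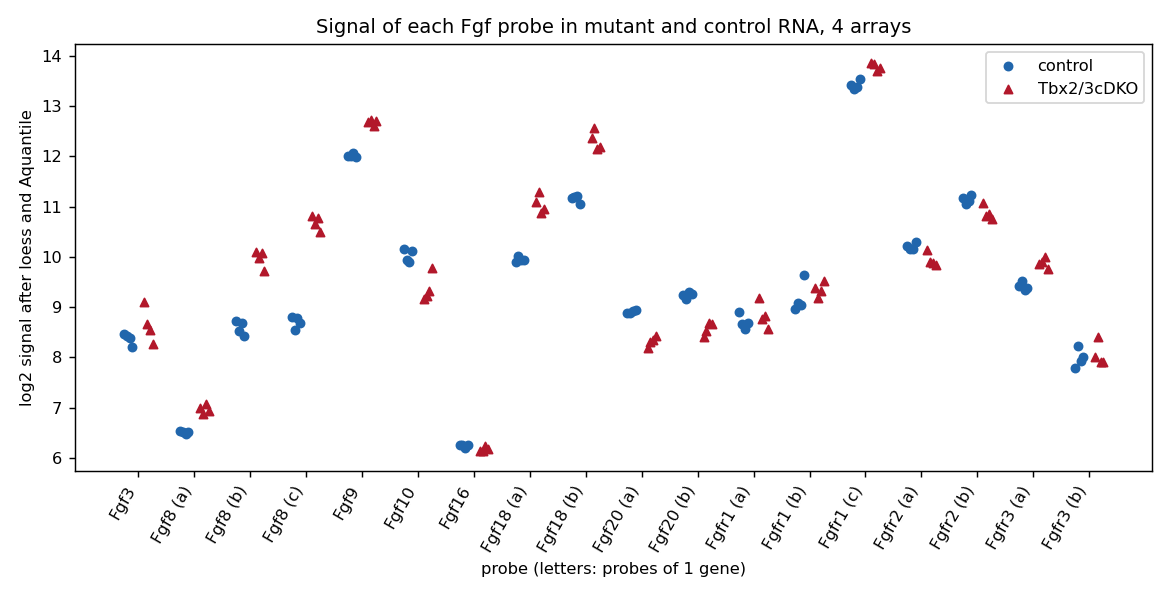
Log2 signal of all 18 Fgf probes in control (circles) and mutant (triangles) RNA, 1 point per array, after loess and quantile scaling of the average signal. Signals of different probes cannot be set against each other. Mutant and control points are apart for Fgf8, Fgf9, Fgf10, Fgf18 and Fgf20, while Fgf16 lies between 6.13 and 6.26 in both groups, not well above background.

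Marker genes moved beside these ligands. Their counts are by the brightest probe of each gene, for which 13.1% of all genes were called higher and 9.81% lower. Of the 14 otic neuroblast and early neuron markers tested, 11 were higher, 0 were lower and the median log2 ratio was 0.88. Their summed linear signal was 37455 to 44859 in the mutant and 21783 to 23730 in the control. Of the 14 otic epithelium markers tested, 8 were lower and 1 was higher, with summed signals of 103954 to 122806 in the mutant and 198257 to 224607 in the control. Oc90, an otoconial protein of the otic vesicle, fell by 1.83 ± 0.24 on the log2 scale, and Dlx5, a homeobox gene of the dorsal otocyst, fell by 1.19 ± 0.22 (limma adjusted p = 2.07e-05 and 7.61e-05). Prosensory markers had 5 of 9 lower and 1 higher, with summed signals of 45054 to 49553 in the mutant and 50409 to 52224 in the control. The lower ones were Fgf10 and Fgf20 themselves, Sox2, Lfng and Bmp4. Sox2 and Jag1 also stand in the otic epithelium list, so this count is no separate support.

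Cells outside the epithelium were read as well. Mesenchyme markers were higher for 10 of 14 and lower for 1, with summed signals of 137836 to 141523 in the mutant and 114217 to 127200 in the control. All 12 erythroid and all 12 endothelial markers were higher, with summed signals of 1316630 to 1427310 against 447805 to 687954 and of 32020 to 34984 against 22220 to 25004. Macrophage markers were higher for 8 of 12 (7481 to 9711 against 6092 to 6839). Of 7 hindbrain markers tested, 2 were higher and 1 lower (4818 to 5550 against 4485 to 5129), and Hoxb1, Pax6 and En1 were not well above background in any channel. The higher ones were En2, an Engrailed transcription factor gene active where midbrain meets hindbrain, and Dbx1, a homeobox gene of neural progenitors. En2 was well above background in 4 of 4 mutant and 0 of 4 control channels and was at least 4.20-fold higher in the mutant. Dbx1 was well above background in 3 of 4 mutant and 0 of 4 control channels and was at least 1.33-fold higher. Both passed the signal filter through their mutant channels alone, which favours a rise, so their test is no support. The 5 surface and pharyngeal epithelium markers tested had log2 ratios of -0.17 to 0.12 at their brightest probes (8681 to 10881 against 8423 to 10222), and Foxn1, Shh, Foxa2, Nkx2-1 and Gcm2 were not well above background. Trp63, a transcription factor of stratified epithelium, had a log2 ratio of -0.07 ± 0.22 at its brightest probe. At a second, dimmer probe it was well above background in 4 of 4 mutant and 0 of 4 control channels. There it was at least 1.35-fold higher in the mutant, and this probe too passed the filter through the mutant channels alone. The part of these cell types in the Fgf results was not tested.

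Among the receptors, the changes were smaller than for Fgf8 and Fgf18, and probes of 1 gene did not always pass together. Fgfr1, the receptor needed for sensory progenitors of the cochlea, was read by 3 probes on the plus strand of chromosome 8. The probe A_55_P2057777 (chr8:26685072-26685131) gave mutant log2 signals of 13.85, 13.83, 13.70 and 13.75 and control signals of 13.42, 13.34, 13.39 and 13.54. The groups did not overlap, and the ratio was 0.36 ± 0.12, a 1.28-fold rise (limma adjusted p = 0.00732). The other two probes had overlapping groups and missed the threshold. A_55_P1967022 (chr8:26684061-26684120) had ratios of 0.43, 0.09, 0.30 and -0.11, a mean of 0.18 ± 0.24 (limma adjusted p = 0.08), which passed with a sex term (adjusted p = 0.0215). A_55_P1967015 (chr8:26685820-26685879) had ratios of 0.28, 0.09, 0.26 and -0.13, a mean of 0.12 ± 0.19 (limma adjusted p = 0.187), and a mean of 0.07 without replicate 2 (adjusted p = 0.538). On replicate 4 both were below 0. The first of the 3 probes exceeded A_55_P1967015 on all 4 arrays, by 0.24 ± 0.16, and A_55_P1967022 on 3 of 4, by 0.18 ± 0.21.

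Fgfr2, the receptor gene that the otic epithelium uses for Fgf3 and Fgf10, was lower at 2 overlapping probes. The array annotation lists each for 2 RefSeq transcripts. Which isoforms these are was not looked up, so the fall cannot be assigned to the epithelial isoform. The 10 spots of A_51_P432403 (chr7:137307455-137307514) gave ratios of -0.09, -0.27, -0.28 and -0.47, a mean of -0.28 ± 0.15 and a 1.21-fold fall (95% interval -0.42 to -0.13, limma adjusted p = 0.0196). Mutant log2 signals were 10.13, 9.90, 9.87 and 9.84 and control signals were 10.22, 10.16, 10.16 and 10.30, which did not overlap. The SD between the 10 spots of an array was 0.025 to 0.049. The overlapping probe A_55_P2094881, which shares 42 bases with it, gave -0.27 ± 0.15 (limma adjusted p = 0.0221), with 1 mutant signal of 11.07 inside the control range of 11.06 to 11.22. Both calls were lost without replicate 3, with ratios of -0.23 and -0.22 and adjusted p of 0.123 and 0.135. They were also lost without replicate 4, with ratios of -0.23 and -0.21 and adjusted p of 0.0619 and 0.0728.

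**Figure D4:**
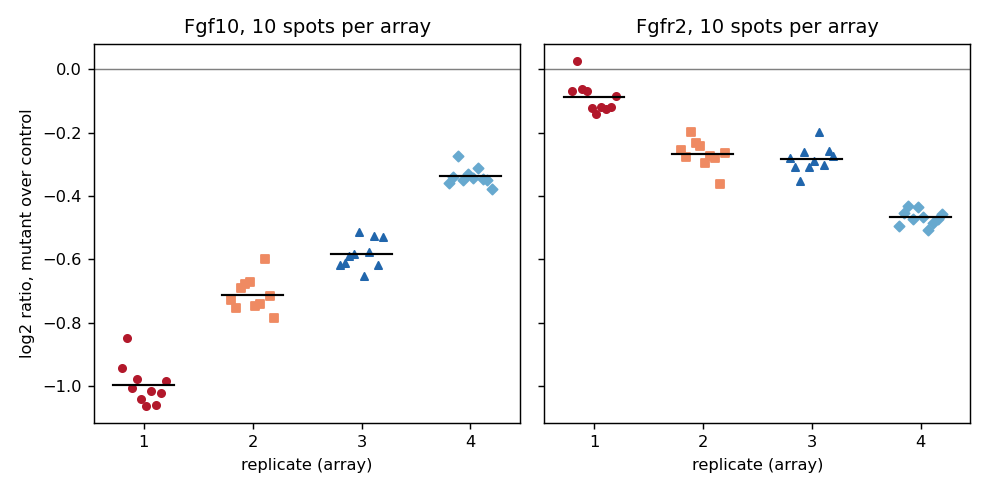
Log2 ratio of mutant over control at each of the 10 spots of the Fgf10 probe (left) and the Fgfr2 probe (right) on each array, with the mean of the spots as a line. The spots of an array lie close together, with SDs of 0.028 to 0.064 for Fgf10 and 0.025 to 0.049 for Fgfr2, while the array means run from -0.996 to -0.34 and from -0.47 to -0.09.

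Fgfr3, the receptor of cochlear supporting cells, was higher at 1 of 2 probes. At A_55_P1996578 (chr5:34079649-34079708) mutant log2 signals were 9.86, 9.89, 9.99 and 9.77 and control signals were 9.43, 9.51, 9.35 and 9.38. They did not overlap, and the ratio was 0.46 ± 0.12, a 1.37-fold rise (limma adjusted p = 0.00162). The probe that crosses an intron, A_65_P06147, had ratios of 0.20, 0.18, -0.02 and -0.11, a mean of 0.06 ± 0.15 with overlapping groups (limma adjusted p = 0.585, 95% interval -0.10 to 0.23). It gave the lower ratio on all 4 arrays, by 0.40 ± 0.22. Without replicate 2 its mean was -0.01 (limma adjusted p = 0.96).

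The difference of the mutant effect between labelled sexes was tested with a genotype-by-sex term in limma, which leaves 1 residual degree of freedom. At an adjusted p under 0.05, 0 of 17 probes differed, where 0.0172% of all probes did, and 5 of 17 had an unadjusted p under 0.05, where 16.6% of all probes did. The 5 were Fgf3, Fgf10, both overlapping Fgf18 probes and the intron-crossing Fgfr3 probe. For Fgf10 the mean ratio was -0.85 in females and -0.46 in males, a difference of -0.39 (unadjusted p = 0.003, adjusted p = 0.137). With median centring in place of loess that difference was -0.51 with an adjusted p of 0.028. For Fgf18 the rise was larger in females by 0.24 at either probe (unadjusted p = 0.0294 and 0.0324, adjusted p = 0.253 and 0.261). With median centring the Fgf18 differences were only 0.087 and 0.052 (limma unadjusted p = 0.553 and 0.724). Fgf3 and the intron-crossing Fgfr3 probe also had an unadjusted p above 0.05 there (0.0538 and 0.128 in limma). Replicates 2 and 4, on which sex-linked genes went partly against the labels, are 1 array of each sex.

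Other genes of the Fgf pathway were read from lists, 1 brightest probe per gene, in the same fit. Feedback inhibitors and transcriptional targets had 9 of 14 genes higher and 0 lower, with a median log2 ratio of 0.37, where the brightest-probe background was 13.1% higher and 9.81% lower. Dusp6, the phosphatase that inactivates Erk, rose by 0.86 ± 0.14. Etv4 and Etv5, transcription factors induced by Fgf signalling, rose by 0.74 ± 0.16 and 0.62 ± 0.11. Il17rd, also known as Sef, a membrane inhibitor of the pathway, rose by 0.50 ± 0.16. Their limma adjusted p values were 0.000202, 0.000443, 0.000568 and 0.00136. The other higher genes were Spry1, Spred1, Etv1, Dusp4 and Shisa2, although Spred1 passed narrowly at its brightest probe (0.23 ± 0.17, limma adjusted p = 0.0436) and missed the threshold at its other probe (0.15 ± 0.15, adjusted p = 0.189). Spry2 (0.11 ± 0.18) and Spry4 (0.26 ± 0.23) missed the threshold. The marker lists above also moved, and their part in this list was not tested.

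Other Fgf genes, with the intracellular relatives Fgf11 to Fgf14 counted in, had 3 of 10 higher and 2 lower and a median of 0.09. The 2 lower genes, Fgf13 (-0.39 ± 0.18, limma adjusted p = 0.00494) and Fgf14, were such relatives, so no secreted ligand of this list was called lower. Fgf15, a ligand of neural tissue in the embryo, rose by 0.95 ± 0.26 and Fgf12, an intracellular relative that binds sodium channels, by 0.55 ± 0.13 (limma adjusted p = 0.000215 and 0.000942). Fgf4, known from the limb bud and the early embryo, was well above background in 4 of 4 mutant and 0 of 4 control channels. Its signal was at least 1.80-fold higher in the mutant. Fgf14, another intracellular relative, was well above background in 4 of 4 control and 0 of 4 mutant channels at both probes. It was at least 1.66-fold lower in the mutant at 1 probe and at least 1.29-fold lower at the other. Fgf4 and Fgf14 passed the signal filter only through the group where they were higher. The filter thus favoured their directions, also in the counts of this list, and their test is no support.

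Other receptors, co-receptors and binding proteins had 4 of 9 higher and 2 lower, with a median of 0.12. The fourth receptor gene, Fgfr4, fell by 0.65 ± 0.16 and by 0.36 ± 0.12 at its 2 probes (limma adjusted p = 0.000242 and 0.00579). Ncam1, a neural adhesion protein that can engage Fgf receptors, rose by 0.62 ± 0.06 at 1 probe and had a ratio of 0.27 ± 0.22 at the other, which missed the threshold. Flrt2, a transmembrane partner of the receptors, rose by 0.54 ± 0.11 and Fgfbp3, a secreted carrier of Fgf ligands, fell by 0.47 ± 0.07 (limma adjusted p = 0.000534 and 0.00113).

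Heparan sulfate enzymes had 3 of 12 higher and 1 lower, with a median of 0.05. Hs3st1 and Hs6st2, which sulfate the chains, rose by 0.71 ± 0.24 and 0.42 ± 0.16 (limma adjusted p = 0.000213 and 0.00295). The extracellular endosulfatase Sulf1 fell by 0.76 ± 0.23, whereas its relative Sulf2 rose by 0.22 ± 0.08 (limma adjusted p = 0.000872 and 0.0258). The Sulf2 call was lost without replicate 1, 2 or 3, with ratios between 0.19 and 0.23. Signal transducers at the receptors had 2 of 18 higher and 1 lower, with a median of 0.05, shares no larger than the 13.1% and 9.81% of all genes. The adaptor Shc1 rose by 0.32 ± 0.05, the exchange factor Sos1 by 0.53 ± 0.24 with 1 of 4 control channels above background, and the kinase Map2k1 fell by 0.23 ± 0.04 (limma adjusted p = 0.00504, 0.0069 and 0.0168). Sos1 passed the signal filter through its mutant channels alone, which favours a rise. The Map2k1 call was lost without replicate 1, 3 or 4, with ratios of -0.25 to -0.22.

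**Figure D5:**
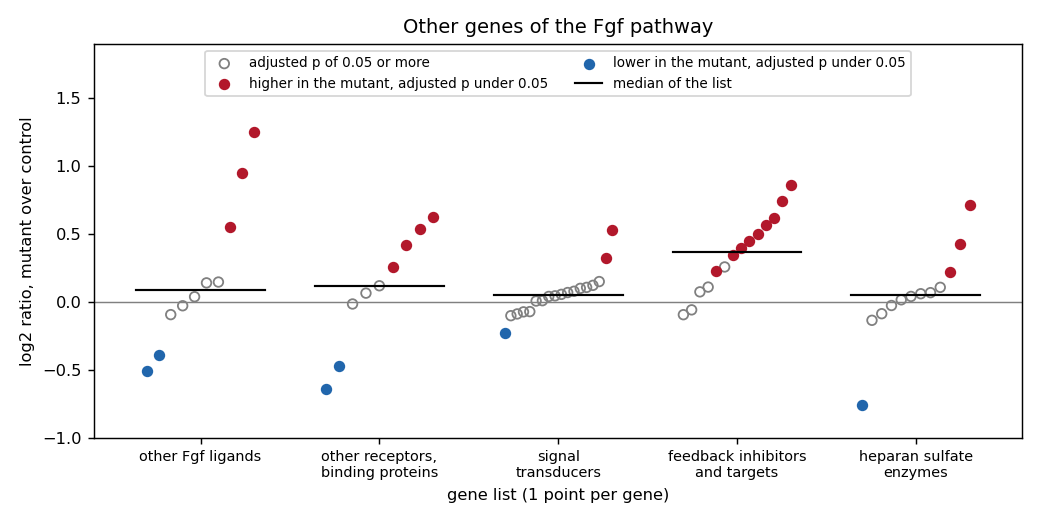
Log2 ratio of mutant over control for other genes of the Fgf pathway, 1 point per gene by its brightest probe, in 5 lists. Filled points passed the limma threshold (red higher, blue lower), open points did not, and lines are list medians. Feedback inhibitors and targets have 9 filled points, all above 0, while 15 of the 18 signal transducers are open.

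The probes whose 4 ratios were nearest to those of the most strongly raised and the most strongly lowered member were found by Euclidean distance over the 4 arrays. Nearest to Fgf8 at its upstream common probe were Sox3, a transcription factor of neural progenitors, at a distance of 0.223, Sfrp2, a secreted modulator of Wnt signalling, at 0.266, and the potassium channel subunit gene Kcns3 at 0.384. Kcns3 was well above background in 1 of 4 control channels. Nearest to Fgf20 at its second probe were Fbxo2, an F-box protein gene expressed in the otic epithelium, at 0.129, the calcium channel subunit gene Cacna2d3 at 0.134 and the ubiquitin ligase gene Cblc at 0.136. Distances are descriptions, and the nearest genes changed with the processing.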

How the data were processed

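Total RNA of dissected otocysts was amplified, labelled with AlexaFluor555 or AlexaFluor647 and hybridised in pairs, per the labels' protocols. The red channel held mutant RNA on replicates 1 and 3 and control RNA on replicates 2 and 4. The 4 arrays shared 1 slide, so no slide batch could be tested. Per the file headers, spot and local background intensities came from version 10.7.3.1 of Feature Extraction. The same files hold log10 ratios computed by the scanner software, per the file headers. The deposited value table holds signed fold ratios that matched the scanner ratios within 0.001 (log2) for 90.8% to 93.3% of 39429 probes, with a median of 1 in each column. The sources used here do not say how the rest were made.

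Mean signals were corrected with normexp (offset 50) and ratios normalized by loess in limma 3.58.1 under R 4.3.3. Non-uniform spots (21 to 32 per array) were left out, 0 were saturated, and repeated spots were averaged. The signal filter kept probes well above background in 3 or more mutant channels or 3 or more control channels (23202 kept, 23196 tested). Genotype and dye terms were fitted with lmFit and eBayes (residual degrees of freedom 2, prior 4.84). Every member probe is named. Of each pathway list, the 4 genes with the smallest adjusted p are named with values, and genes named beyond these were chosen after their values were seen. Members and lists were chosen with earlier results of these data known. On simulated data with 23177 probes, 100 of 100 probes changed 1.5-fold and 100 of 100 changed 2-fold were recovered, and 13 of 213 calls were false. No other probes were changed there, and noise was independent between probes, whereas 22.1% of real probes were called. The simulation therefore does not measure recovery in the real data. The number of arrays limits the precision. Figures were drawn with matplotlib 3.10.9.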

Additional observations from a re-analysis of the deposited data

Results flagged for a closer look

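In 73 sets of 4 values, 1 per array, an array far from the others was looked for. In 2 sets an array stood apart, where chance gives about 1 set in 20. The sets were log2 ratios and, for member probes, also mutant and control signals, so sets of 1 probe are not independent. At the second Fgf20 probe replicate 1 stood lowest, with a log2 ratio of -0.85 against a mean of -0.67 ± 0.12. For Sulf1, replicate 4 stood highest, at -0.41 against a mean of -0.76 ± 0.23. At the intron-crossing Fgfr3 probe both female arrays lay above 0 and both male arrays below it. The sexes differed there by 0.25 (unadjusted p = 0.0256, adjusted p = 0.242 in limma's genotype-by-sex test), which did not pass the correction.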

How the results depend on the processing

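Each member probe was recomputed under up to 18 alternatives: other background corrections, normalizations, filters and model terms, the deposited value table, 1 probe per gene, and leaving out each array. Of 297 such values, 287 kept their direction and their side of the threshold. Other filters, other model terms and 1 probe per gene left the ratio itself the same, so direction could not change under them. Fgf3 passed it under 4, at ratios of 0.30 with median centring (adjusted p = 0.0195) and 0.28 with a sex term, and leaving out 1 array gave 0.16 to 0.40. Fgfr1 at A_55_P1967022 passed with a sex term (0.18). Leaving out 1 array gave -0.33 to -0.23 for Fgfr2 at A_51_P432403 and -0.32 to -0.21 at A_55_P2094881, and for the intron-crossing Fgfr3 probe -0.0076 to 0.13, which turned its sign without replicate 2. Higher member probes numbered 5 and lower ones 3 with 1 probe per gene, where fewer probes are counted. Leaving out 1 array gave 8 to 9 higher and 3 to 5 lower member probes, and 1339 to 2172 lower probes in all. Under median centring 1 member probe (Fgf10) differed between sexes. The difference between the variant 1 and the downstream Fgf8 probe turned from -0.91 to 0.65 in the scanner software's ratios, which were the one background treatment of 4 to do so. The comparison of Fgf8 probes under background treatments was added after seeing the data. Of 34 values for the nearest genes, 12 shared 0 or 1 of the 3 named genes. For the other changes the cause was not tested. Signal over background limits the Fgf8 variant 1 probe, Fgf4, Fgf14 and Fgf16 to bounds or to no value.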
